A study of Homo sapiens with 18 samples.

Results

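Small nucleolar RNAs and small Cajal body RNAs were read in 18 whole-transcript arrays of MCF10A cells, a non-tumorigenic cell line from human breast epithelium. The members were the probe sets whose only annotated gene symbol starts with SNORD (box C/D), SNORA (box H/ACA) or SCARNA (Cajal body). They came to 196 probe sets of 32321 on the array, or of the 19158 that carry exactly 1 symbol: 115 SNORD, 62 SNORA and 19 SCARNA. They stand for 192 symbols, since SCARNA9, SCARNA9L, SCARNA17 and SNORA15 have a pair of probe sets each. Another 63 probe sets list a member symbol together with further genes and were left out.

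All 6 groups hold 3 arrays and went through the same lentiviral infection, puromycin selection, lipid transfection and culture in an estrogen-containing medium. In 4 groups the cells carried the non-targeting hairpin shNT and received control cDNA (called the control arrays), YAP/TAZ cDNA, ESR1 cDNA or YAP/TAZ ESR1 cDNA (called both cDNAs). Cells of the other 2 groups carried shLATS1B, aimed at LATS1, or shLATS1+2, aimed at LATS1 and LATS2, and received control cDNA. LATS1 and LATS2 are kinases that restrain the co-activators YAP (YAP1) and TAZ (WWTR1), while the gene ESR1 codes for estrogen receptor alpha. The transfection was transient, and the labels do not state whether replicates are separate cultures. The p-values therefore refer to the spread between arrays as given, which may be technical.

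Box C/D RNAs guide 2'-O-methylation and box H/ACA RNAs guide pseudouridylation, mostly of ribosomal RNA in the nucleolus, while SCARNA members guide the same modifications of spliceosomal RNAs in the Cajal body. A few, such as SNORD13 and the U14 family, take part in cleaving or acetylating the precursor of the small ribosomal subunit RNA. Most human members lie in introns of host genes, often ribosomal protein genes or long non-coding RNAs of the SNHG family, and are released from the spliced intron by exonucleases. Many of these hosts start transcription at a C followed by a run of C and T bases, the terminal oligopyrimidine run, which ties translation of their messenger RNA to growth signals.

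In the RefSeq gene table (GRCh38.p14), all 196 members were found. The median length was 81 bases for SNORD (60 to 205), 134 for SNORA (123 to 236) and 270 for SCARNA (125 to 421). Exactly 1 gene spanned 178 members: a protein-coding gene for 107, among them 32 in ribosomal protein genes, a long non-coding RNA for 70 and a transcribed pseudogene for 1. More genes spanned 16 members and none spanned 2. The strand of a member against its host was not compared.

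The starts of 10 hosts are shown here, because members named in the results below lie in them. Each line gives 20 bases before and 20 from the annotated start in RefSeq GRCh38.p14, on the transcribed strand. Capitals mark the run of C and T bases where it begins with C at the start.
RPL27A, chr11:8682772-8682811 (+): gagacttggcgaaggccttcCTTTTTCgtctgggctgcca
RPL13A, chr19:49487588-49487627 (+): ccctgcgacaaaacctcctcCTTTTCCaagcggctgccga
SNHG32, chr6:31834896-31834935 (+): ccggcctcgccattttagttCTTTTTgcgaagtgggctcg
SNHG1, chr11:62855866-62855905 (-): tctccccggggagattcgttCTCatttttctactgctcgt
HSPA8, chr11:123062117-123062156 (-): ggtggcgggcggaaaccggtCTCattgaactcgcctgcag
GAS5, chr1:173869026-173869065 (-): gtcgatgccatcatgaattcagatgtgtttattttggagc
NCL, chr2:231464465-231464504 (-): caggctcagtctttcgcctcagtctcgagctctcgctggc
TBRG4, chr7:45111678-45111717 (-): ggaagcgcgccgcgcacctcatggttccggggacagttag
SNHG22, chr18:49814003-49814042 (+): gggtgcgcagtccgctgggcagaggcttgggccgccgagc
CEP295, chr11:93661662-93661701 (+): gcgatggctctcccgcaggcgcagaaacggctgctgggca
A run of at least 5 such bases at the annotated start was present in 24 of the 75 hosts in the table (32%) and in 4.04% of all 27305 genes there. Of the 10 shown, RPL27A, RPL13A and SNHG32 held it. In SNHG1 and HSPA8 the run at the start was 3 bases long, and in GAS5, NCL, TBRG4, SNHG22 and CEP295 no such run began at the annotated start. The run is a match of letters, searched on the transcribed strand only, and its use was not measured.

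SCARNA16 is also shown because it overlaps a microRNA hairpin. The MIR6516 hairpin, chr17:77089417-77089497 (+) in RefSeq GRCh38.p14, has 81 bases, of which 77 lie inside SCARNA16. Capitals mark the ACA box, which stands 3 bases before the end of SCARNA16.
MIR6516: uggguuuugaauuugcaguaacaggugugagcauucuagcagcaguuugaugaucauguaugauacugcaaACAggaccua
SCARNA16 had one of the 4 largest spreads between replicates among all members, described further on.

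The labels were checked before any comparison. LATS1 was lower in the shLATS1B arrays (-1.19 on the log2 scale) and in those labelled shLATS1+2 (-1.10), both called by limma, while LATS2 stood 0.09 higher in the latter and was not called. YAP1 (-0.05) and WWTR1 (-0.13) were not called with YAP/TAZ cDNA. With both cDNAs WWTR1 was called higher (0.42), YAP1 was not called (0.04) and LATS1 was called higher (0.47). Whether these probe sets read the transfected sequence was not tested. ESR1 was called higher with ESR1 cDNA (0.94), with both cDNAs (0.50) and also in the shLATS1B (0.85) and shLATS1+2 arrays (0.88). Groups are therefore named by their labels throughout. Of the mammary epithelial markers, 8 of 10 were measured and all 8 were above the level used here to call a probe set dim. Of 9 markers of leukocytes, endothelium and fibroblasts, 8 were measured and 3 were above it, with PTPRC, CD3E, VWF, CDH5 and PDGFRA under it.

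Markers moved with some of the groups. KRT14, a basal keratin, was called lower in every group than in the control arrays: by limma its change was -2.57 with shLATS1B, -2.36 with shLATS1+2, -2.27 with both cDNAs, -0.78 with ESR1 cDNA and -0.73 with YAP/TAZ cDNA. KRT8, a luminal keratin, was called higher with shLATS1B (1.10), shLATS1+2 (0.91) and both cDNAs (0.65). Of the 8 mammary markers, 7 were called with shLATS1B and with shLATS1+2 and 8 with both cDNAs, in mixed directions. Of the 8 markers of other cell types only PECAM1 was called, higher with shLATS1B (0.55), shLATS1+2 (0.85) and both cDNAs (0.28). The log2 of the summed intensities of those 8 lay between 8.26 and 8.33 in the control arrays, 8.38 and 8.50 with shLATS1B, 8.48 and 8.53 with shLATS1+2, and 8.32 and 8.38 with both cDNAs. With YAP/TAZ cDNA it lay between 8.29 and 8.36 and with ESR1 cDNA between 8.28 and 8.35. The part of these shifts in the members' changes was not tested.

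That level was a mean log2 value of 5.194, the 30th percentile of all tested probe sets. At or above it were 112 of the 196 members: 58 SNORD, 39 SNORA and 15 SCARNA. The other 84 were dim, among them all 20 members of the SNORD115 family, whose neuronal representatives bind the serotonin receptor 2C transcript, and all 6 of the SNORD113 and SNORD114 families. Means over the 18 arrays ran from 3.94 to 12.16 over the 196 members. The brightness of a probe set also depends on its probes, so an order of means is no order of RNA amounts, and changes were read only within a probe set. The probe sets with the highest means in their classes were SNORD57, SNORD33 and SNORD116-15, then SNORA71D, SNORA24 and SNORA71C, and SCARNA12, SCARNA7 and SCARNA17.

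Replicates of one group differed more in the members than in most of the array. The residual SD within groups, taken over 12 degrees of freedom, had a median of 0.164 log2 units over the 196 members and 0.0831 over all tested probe sets. At or above the dim level the medians were 0.251 for SNORD, 0.259 for SNORA, 0.309 for SCARNA and 0.0972 for all tested. Of the 112 members there, 110 lay above the median of all such probe sets and 93 lay above their 90th percentile. MicroRNA hairpins at or above the dim level had a median of 0.113 (n = 46), and spliceosomal and other small RNAs 0.214 (n = 13). These are descriptions, with no test of a class against the rest.

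**Figure D1:**
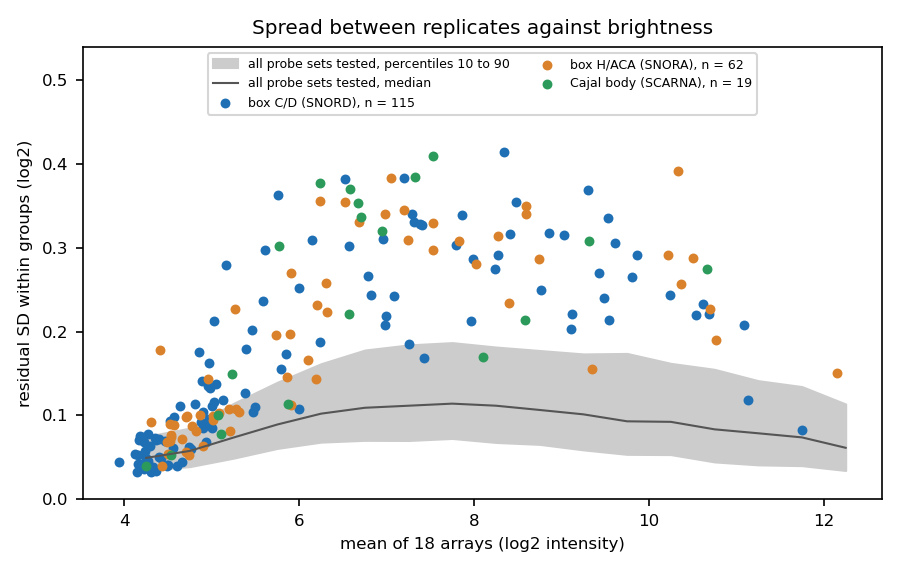
The residual SD within groups (log2) is plotted against the mean over 18 arrays (log2 intensity), 1 point per probe set, beside the median and the percentiles 10 to 90 of all tested probe sets. Above the dim level of 5.194, 110 of 112 members have a residual SD over 0.0972, the median of all tested probe sets there. The dim members have a median of 0.0726, and a few of them stand far above the line, up to SNORD77 at 0.280.

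The members with the largest residual SD were SNORD116-24 (0.414), SCARNA16 (0.410), SNORA3A (0.392) and SCARNA6 (0.385), which guides a modification of the spliceosomal U5 RNA. SCARNA16 read 7.21, 8.65 and 8.397 in the ESR1 arrays, which are given here and below in the order of their replicate numbers. In the control arrays it read 7.21, 7.84 and 7.64. A single group thus spanned more than 1 log2 unit, and the control values lay within it. The smallest residual SDs belonged to the dim SNORD115-2 (0.0321), SNORD116-10, SNORD114-2 and SNORD115-48. Among bright members the spread could also be small: SNORD57, which guides methylation of 18S ribosomal RNA, had a residual SD of 0.0821 and its 18 values lay between 11.56 and 11.91.

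The spread was shared between members. For each pair of the 112 members at or above the dim level, the deviations from the group means were correlated over the 18 arrays. The median r was 0.759, and 98.8% of pairs were above 0. The median r was 0.00156 for all 13410 tested probe sets at or above that level and 0.556 for 13 spliceosomal and other small RNAs there. It was 0.451 for 118 probe sets there named like ribosomal protein genes, some of which are hosts. The latter were picked by the start of the symbol, so other genes can be among them. The pairs of members share arrays, scaling and, in part, hosts. Without the ESR1 and shLATS1+2 groups, over 12 arrays, the median r of members was 0.564 and 92.1% of pairs were above 0. Over those arrays the probe sets named like ribosomal protein genes stood at 0.293.

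The shared movement set 3 arrays apart from the other arrays. The shift of an array is the median, over the 112 members, of the deviation from each member's own mean over 18 arrays. It was -0.123, 0.414 and 0.607 log2 units in the ESR1 arrays and 0.0471, 0.0694 and 0.517 in the arrays labelled shLATS1+2. In ESR1 arrays 2 and 3 and in shLATS1+2 array 3, 107, 111 and 108 of the 112 members lay above their own mean. ESR1 array 1 had 21 members above, so it lay on the other side of its replicates.

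The other groups were tighter. Control arrays stood at -0.23, 0.0512 and 0.0454, and control array 1 had 9 of 112 members above their own mean against 74 and 68 in its replicates. YAP/TAZ arrays stood at 0.101, -0.0485 and -0.0368, and shLATS1B arrays at -0.000776, -0.112 and -0.162. The arrays with both cDNAs were the only group with all 3 below -0.2, at -0.216, -0.412 and -0.448, with 18, 9 and 5 members above their own mean. Spliceosomal and other small RNAs stood at -0.0667, -0.316 and -0.386 in these arrays. The 3 arrays with the highest member shifts also had the 3 highest medians over all probe sets, 5.619 and 5.601 in ESR1 arrays 2 and 3 and 5.576 in shLATS1+2 array 3. The part of this difference in scaling in the members' values was not tested. Results that rest on these arrays are given below with and without them.

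**Figure D2:**
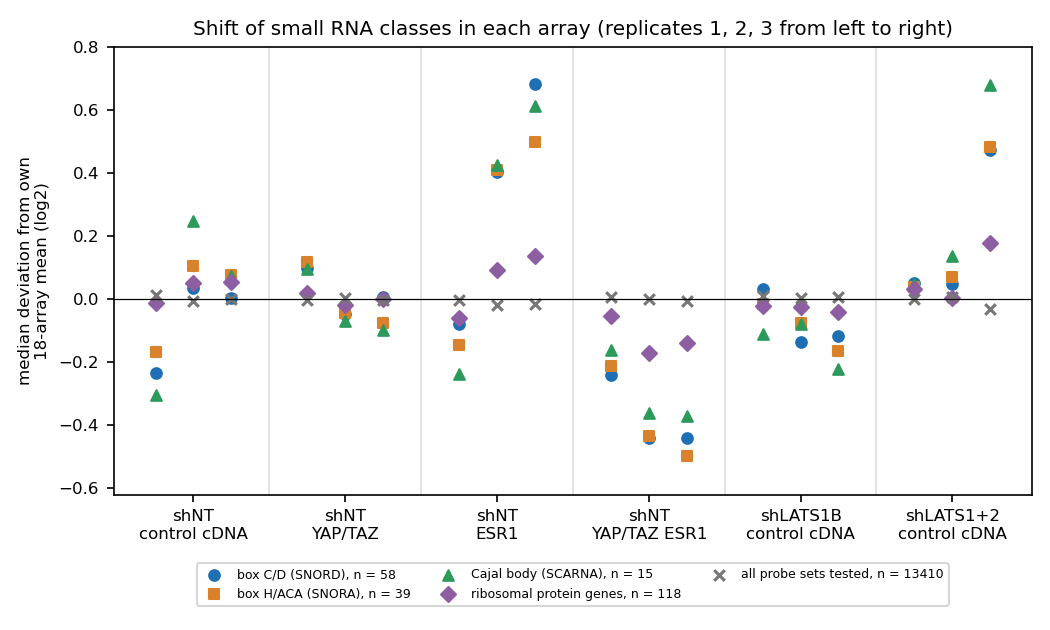
The median deviation from the own mean over 18 arrays (log2) is drawn for each array. Marks show each class of small RNA, the probe sets named like ribosomal protein genes and all tested probe sets, at or above the dim level. The 3 classes are all high in ESR1 arrays 2 and 3 and shLATS1+2 array 3 and all low in the 3 arrays with both cDNAs. They lie apart in others, such as control array 2 (SNORD 0.034, SCARNA 0.249), while all tested probe sets stay within 0.0304 of 0.

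Over the 6 groups, limma's moderated F test called 94 of 196 members (48.0%) at an adjusted p under 0.05, where 40.8% of all tested probe sets were called. The members at or above the dim level were called in 79 of 112 cases, beside 55.7% of all tested probe sets there. By class, 58 of 115 SNORD, 24 of 62 SNORA and 12 of 19 SCARNA were called. The smallest p-values belonged to SCARNA17 (adjusted p 7.4e-05), SNORA38, SNORD14E, SNORD38B, SCARNA8 and SNORD13. The median share of a member's variation that lay between groups was 59.5% at or above the dim level and 63.0% for all tested probe sets there. The count was 60 without array 2 of both cDNAs.

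**Figure D3:**
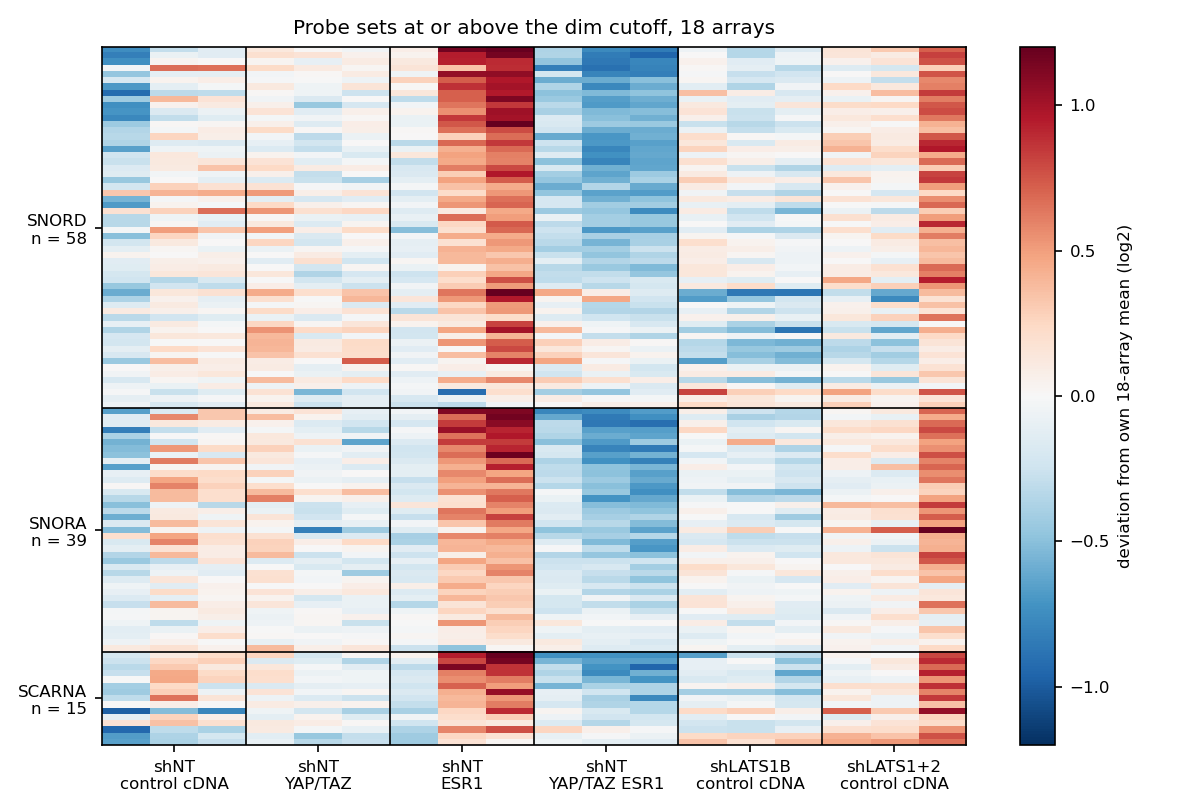
Each row is 1 of the 112 probe sets at or above the dim level, each column 1 of 18 arrays, and the colour is the deviation from the own mean (log2), with rows ordered within a class by the ESR1 mean minus the mean with both cDNAs. Columns for ESR1 arrays 2 and 3 and shLATS1+2 array 3 are nearly all red, and those with both cDNAs are mostly blue.

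With ESR1 cDNA, the called members were nearly all higher, and the largest rises belonged to SNORD78 in GAS5, SNORD52 in SNHG32, SNORA75 in NCL and SNORD44 in GAS5. Called higher than in the control arrays were 30 of 196 members and called lower 1, or 15.8% in all, where 18.5% of all tested probe sets were called (6.90% higher). The called risers were 18 SNORD, 10 SNORA and 2 SCARNA, and the median change over all members was 0.13 log2 units, beside 0.0024 over all tested probe sets. Of 24 spliceosomal and other small RNAs 3 were called higher and 2 lower. Since RNA was read in bulk, fewer cells that hold a small RNA and less of it per cell cannot be told apart.

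The largest rise belonged to SNORD78, a GAS5 box C/D RNA that guides methylation of 28S ribosomal RNA. It read 8.79, 9.24 and 9.40 in the control arrays and 9.61, 10.69 and 10.72 in the ESR1 arrays. The groups did not overlap, but ESR1 array 1 lay nearer to the controls than to its replicates. SNORD78 changed by 1.199 ± 0.241 (SE), a 2.30-fold rise (limma, adjusted p = 0.0022). SNORD44, also in GAS5 and a guide for 18S ribosomal RNA, read 8.49, 9.22 and 9.16 against 9.34, 10.25 and 10.45, again without overlap, and changed by 1.06 ± 0.26 (limma, adjusted p = 0.010). Its call was lost without control array 1 (0.82, limma, adjusted p = 0.056), ESR1 array 2 (0.94, limma, adjusted p = 0.053) or ESR1 array 3 (0.84, limma, adjusted p = 0.062).

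SNORD52, a 28S guide in SNHG32, read 6.87, 7.48 and 7.49 in the control arrays and 7.94, 8.52 and 8.75 with ESR1 cDNA. All 3 ESR1 values lay above the controls, and the change was 1.12 ± 0.22 (limma, adjusted p = 0.0017). SNORA75, an 18S pseudouridylation guide in the nucleolin gene NCL, read 5.87, 6.40 and 6.55 against 6.68, 7.73 and 7.61, with no overlap. Its change was 1.06 ± 0.24 (limma, adjusted p = 0.0047). The single fall was SNORA22, at 9.46, 9.53 and 9.40 in the control arrays and 9.09, 8.87 and 9.38 with ESR1 cDNA. Array 3 lay just under the lowest control, and the change was -0.35 ± 0.11 (limma, adjusted p = 0.041). Its call was lost without any 1 of the control arrays 1, 2 and 3, ESR1 arrays 1 and 2, YAP/TAZ array 3, shLATS1B array 2 and shLATS1+2 array 1, at changes of -0.23 to -0.39.

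The size of this comparison rested on single arrays. The number called was 80 without ESR1 array 1, 13 without ESR1 array 2, 10 without ESR1 array 3 and 12 without control array 1. Without ESR1 array 1 and shLATS1+2 array 3 it was 92 (91 higher), where 30.8% of all tested probe sets were called. Without ESR1 arrays 2 and 3 and shLATS1+2 array 3, which left a single ESR1 array, the median change was -0.0096. In that fit SNORD78 (0.47), SNORD44 (0.39), SNORD52 (0.66) and SNORA75 (0.40) kept a positive change. The single ESR1 array left was assumed to vary like the other groups, so no call is read from that fit.

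With both cDNAs, members were mostly lower. Of 196 members, 25 were called lower and 1 higher, or 13.3% in all, where 28.9% of all tested probe sets were called (14.5% lower). The called members lower were 13 SNORD, 9 SNORA and 3 SCARNA, and the median change was -0.10, beside -0.0046 over all tested probe sets. Of 24 spliceosomal and other small RNAs 6 were called lower, and of 189 microRNA hairpins 2. Only 41 of the 196 had a positive change.

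SNORD14E, a member of the U14 family that lies in the heat shock gene HSPA8, fell most. It read 6.76, 7.46 and 7.45 in the control arrays and 5.96, 5.89 and 5.99 with both cDNAs. The latter group was tight and lay below all other 15 arrays, and the change was -1.27 ± 0.19, a 2.42-fold fall (limma, adjusted p = 7.1e-05). SNORD13, the guide for acetylation of 18S ribosomal RNA, read 11.004, 11.09 and 11.13 against 10.21, 10.04 and 10.01. The groups did not overlap, and SNORD13 fell by 0.99 (SE 0.16, limma, adjusted p = 0.00015). The probe set of its copy SNORD13P3 (-0.93 ± 0.19, limma, adjusted p = 0.0012) correlated with that of SNORD13 at r = 0.955 over 18 arrays, so which of the near-identical copies it reads is uncertain.

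SNORA3B, a 28S guide in the ribosomal protein gene RPL27A, read 7.07, 7.78 and 7.52 in the control arrays and 6.59, 6.35 and 6.46 with both cDNAs, without overlap. It changed by -0.99 ± 0.25 (limma, adjusted p = 0.0056). The one called rise was SCARNA7, a guide for the spliceosomal U1 RNA in the nuclear import gene KPNA4. SCARNA7 read 8.37, 9.004 and 8.93 against 9.57, 9.37 and 9.29, with no overlap, and changed by 0.64 ± 0.22 (limma, adjusted p = 0.039). Its call was lost without control array 1 (0.45, limma, adjusted p = 0.17) and without array 1 (0.56), 2 (0.66) or 3 (0.70) of both cDNAs.

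The direction was the same in each fit that left out an array, and the number called was not. It was 44 without control array 1, 11 without control array 2, 14 without control array 3, 47 without ESR1 array 1, and 12 each without array 2 and without array 3 of both cDNAs. Without ESR1 array 1 and shLATS1+2 array 3 it was 60 (55 lower), where 33.9% of all tested probe sets were called. Without ESR1 arrays 2 and 3 and shLATS1+2 array 3 it was 61 (56 lower), again beside 33.9%. These arrays belong to neither group compared and enter only through the spread.

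The interaction asks whether adding YAP/TAZ cDNA did the same with ESR1 cDNA present as without it. It was called for 45 of 196 members, all negative, where 18.8% of all tested probe sets were called (7.61% negative). By class it was called for 30 SNORD, 13 SNORA and 2 SCARNA. The median over members was -0.34 log2 units and over all tested probe sets -0.00048. An unadjusted p under 0.05 was reached by 100 of 196 members, beside 5899 of 19158 tested probe sets.

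SNORD44 had the largest value, -1.91 ± 0.37 (limma, adjusted p = 0.0019). It was lower by -1.43 with both cDNAs than with ESR1 cDNA and higher by 0.48 with YAP/TAZ cDNA than in the control arrays. SNORD44 read 9.50, 9.47 and 9.35 in the YAP/TAZ arrays and 8.94, 8.46 and 8.35 with both cDNAs, so all values with both cDNAs lay below those of the YAP/TAZ and ESR1 arrays. SNORD78 (-1.89), SNORA74A (-1.69) and SNORD30 (-1.60) followed. SNORA74A is a 28S guide and SNORD30 a 28S guide in SNHG1.

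SNORA74A read 6.40, 6.89 and 7.37 in the control arrays, 7.15, 7.22 and 6.95 with YAP/TAZ cDNA, 7.02, 8.17 and 8.18 with ESR1 cDNA and 6.27, 6.30 and 6.38 with both. SNORD30 read 8.12, 8.88 and 8.86, then 8.89, 8.76 and 8.95, then 8.97, 9.78 and 9.75, and 8.38, 7.99 and 8.07 in the same order of groups. For both RNAs the ESR1 arrays 2 and 3 were the highest of these 12 arrays. The number called was 104 without ESR1 array 1, 23 without ESR1 array 2, 24 each without ESR1 array 3, control array 1 and YAP/TAZ array 1, 25 without array 2 of both cDNAs and 26 without array 3. Without ESR1 array 1 and shLATS1+2 array 3 it was 111, where 31.9% of all tested probe sets were called. Without ESR1 arrays 2 and 3 and shLATS1+2 array 3, which left a single ESR1 array, the median over members was -0.12. In each of these fits that kept more than 1 ESR1 array, all called members were negative.

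**Figure D4:**
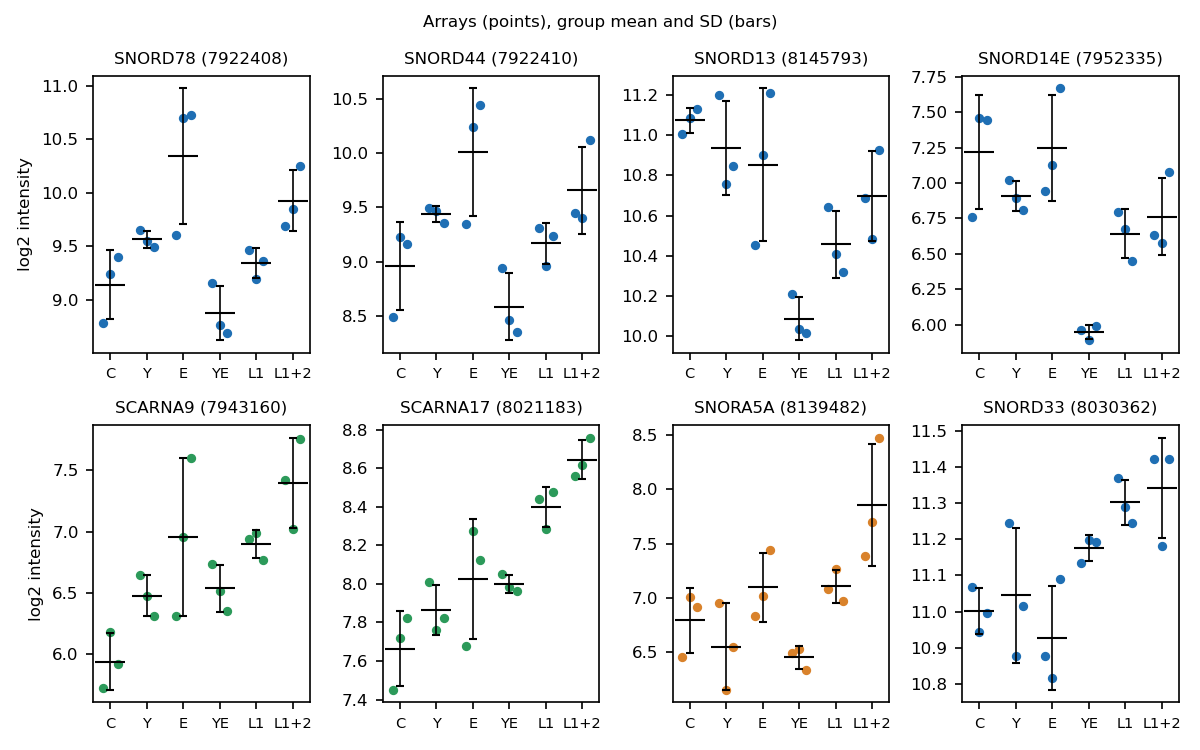
Log2 intensities of 8 named probe sets are drawn as 1 point per array with the group mean and SD as bars, for the control (C), YAP/TAZ (Y), ESR1 (E), both cDNAs (YE), shLATS1B (L1) and shLATS1+2 (L1+2) arrays. SNORD78 and SNORD44 are high in ESR1 arrays 2 and 3 with array 1 far below, SNORD14E is lowest and tight with both cDNAs, and SCARNA17 is highest in the arrays labelled shLATS1+2.

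In the shLATS1B arrays, SCARNA9 and SCARNA17 rose most, and the called falls were SNORD13P3, SNORD13, SNORD14E and SCARNA8. Called against the control arrays were 10 of 196 members, 6 higher and 4 lower (5.10%), where 23.4% of all tested probe sets were called. All 3 arrays lay below the controls for 35 members and above them for 26, shares near the 19.6% and 18.4% of all tested probe sets. The split of calls was 5 higher and 10 lower with arrays centred on their medians, and 6 higher and 7 lower after quantile normalization. By class, 5 SNORD, 1 SNORA and 4 SCARNA were called.

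SCARNA9, a guide for the spliceosomal U2 RNA in CEP295, read 5.72, 6.18 and 5.92 in the control arrays, 6.94, 6.99 and 6.77 with shLATS1B and 7.42, 7.02 and 7.75 with shLATS1+2 (probe set 7943160). The 6 knockdown values all lay above the 3 controls. The change was 0.96 ± 0.24 with shLATS1B (limma, adjusted p = 0.0074) and 1.45 ± 0.24 with shLATS1+2 (limma, adjusted p = 0.00025). Its other probe set, 7943158, was called in neither comparison and correlated with the first at r = 0.705, so SCARNA9 is uncertain.

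SCARNA17, a guide for the spliceosomal U4 RNA in SNHG22, read 7.45, 7.72 and 7.82 in the control arrays, 8.44, 8.28 and 8.48 with shLATS1B and 8.56, 8.62 and 8.76 with shLATS1+2 (probe set 8021183). The groups lay in that order without overlap. The changes were 0.74 ± 0.12 (limma, adjusted p = 0.00030) and 0.98 ± 0.12 (limma, adjusted p = 1.7e-05). Its other probe set, 8021181, changed by 0.67 and 0.93, both called, and the pair correlated at r = 0.970.

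SCARNA8, a U2 guide in HAUS6, read 6.04, 6.23 and 6.06 in the control arrays and 5.65, 5.60 and 5.65 with shLATS1B. It lay lower in all 3, and the change was -0.48 ± 0.086 (limma, adjusted p = 0.00055). With shLATS1+2 it read 5.94, 6.04 and 6.09, which overlapped the controls. SNORD13 read 10.64, 10.41 and 10.32 with shLATS1B, all under the lowest control of 11.004, a change of -0.62 ± 0.16 (limma, adjusted p = 0.0089). Its copy SNORD13P3 changed by -0.63 ± 0.19 (limma, adjusted p = 0.023), a call lost without control array 3 (-0.48) and without shLATS1B array 2 (-0.60) or 3 (-0.48). SNORD14E changed by -0.58 ± 0.19 (limma, adjusted p = 0.038), with shLATS1B values that overlapped the controls. SNORD59B, which lies in ATP5F1B, changed by 0.39 ± 0.13 (limma, adjusted p = 0.038). Its call was lost without control array 1 (0.33) or 3 (0.41) and without shLATS1B array 1 (0.37) or 2 (0.32).

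The count with shLATS1B was 17 without control array 1, 5 without control array 3, 5 without shLATS1B array 2, 27 without ESR1 array 1 and 18 without ESR1 array 3. It was 35 (12 higher, 23 lower) without ESR1 array 1 and shLATS1+2 array 3, where 28.7% of all tested probe sets were called. With ESR1 arrays 2 and 3 and shLATS1+2 array 3 left out it was 40 (14 higher, 26 lower), beside 28.5%. All 10 were among the members called in both of those fits.

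With shLATS1+2, 23 of 196 members (11.7%) were called, all higher, where 24.2% of all tested probe sets were called (11.5% higher). They were 15 SNORD, 4 SNORA and 4 SCARNA. The median change over members was 0.067, beside -0.0073 over all tested probe sets. SNORA5A, an 18S guide in TBRG4, read 6.45, 7.01 and 6.92 in the control arrays and 7.39, 7.70 and 8.48 with shLATS1+2, and 7.08, 7.27 and 6.97 with shLATS1B. The shLATS1+2 values lay above both other groups, and the change from control was 1.07 ± 0.24 (limma, adjusted p = 0.0037). SNORD52 changed by 0.94 ± 0.22 (limma, adjusted p = 0.0041), and SNORA38, in PRRC2A, by 0.83 ± 0.14 (limma, adjusted p = 0.00037).

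All 3 members in the ribosomal protein gene RPL23A were called higher with shLATS1+2: SNORD4A (0.78), SNORD42A (0.69) and SNORD4B (0.60). SNORD42A read 7.03, 6.45 and 7.51 there, with array 3 highest, against 6.33, 6.22 and 6.38 in the control arrays. The number called was 13 (11 higher, 2 lower) without control array 1, 41 without ESR1 array 1 and 15 (13 higher, 2 lower) without shLATS1+2 array 3. Without ESR1 array 1 and shLATS1+2 array 3 it was 31, of which 9 were lower, where 24.8% of all tested probe sets were called, and the median change was 0.013. Without ESR1 arrays 2 and 3 and shLATS1+2 array 3 it was 33, of which 11 were lower, beside 24.6%.

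Set directly against shLATS1B, shLATS1+2 gave no called member by limma, where 0.298% of all tested probe sets were called. An unadjusted p under 0.05 was reached by 25 of 196 members, beside 2177 of 19158 tested probe sets. Without ESR1 array 1, 1 member was called. The change was positive for 179 of 196, with a median of 0.14 beside -0.0087 over all tested probe sets. All 3 shLATS1+2 arrays lay above all 3 shLATS1B arrays for 63 members and below for none, where 11.0% of all tested probe sets lay above. These values rest in part on shLATS1+2 array 3: without ESR1 array 1 and shLATS1+2 array 3 the median was 0.065.

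With YAP/TAZ cDNA no member was called against the control arrays by limma, where 6.73% of all tested probe sets were called (3.02% higher, 3.71% lower). SCARNA9, SNORA70G and SCARNA7 reached an unadjusted p under 0.05, beside 3263 of 19158 tested probe sets. Without ESR1 array 1, 1 member was called. The median change was 0.0049, and 104 of 196 were positive. SCARNA7 had the largest value, 0.54 ± 0.22 (limma, adjusted p = 0.20), with 9.42, 9.29 and 9.22 in the YAP/TAZ arrays, all above the highest control of 9.004. In each of the fits without ESR1 array 1 and shLATS1+2 array 3, and without ESR1 arrays 2 and 3 and shLATS1+2 array 3, 6 members were called (5 higher, 1 lower), where 10.17% and 10.01% of all tested probe sets were called.

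Pairs of members of one host had higher correlations than pairs of different hosts. Over the members at or above the dim level that 1 gene spans, 72 pairs with the same host had a median r of 0.897 over 18 arrays and 4678 pairs with different hosts 0.691. For deviations within groups these were 0.846 and 0.759. Without the members of SNHG14, which hold the SNORD116 copies, 44 pairs with the same host had a median r of 0.905 and 3958 pairs with different hosts 0.737, and 0.852 and 0.754 within groups. The most alike pairs were SNORD116-15 with SNORD116-20 (r = 0.994), SNORD116-14 with SNORD116-20 (0.991), SNORD116-14 with SNORD116-15 (0.990), SNORD78 with SNORD44 (0.980) and SNORD78 with SNORD28 (0.979). SNORD78 and SNORD44 share the host GAS5, and SNORD28 lies in SNHG1. Copies of SNORD116 are near-identical in sequence, so a probe set of 1 copy can read others.

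GAS5, a growth-arrest transcript, hosts 7 members: SNORD44, SNORD74, SNORD75, SNORD77, SNORD78, SNORD79 and SNORD81. All 7 were called higher with ESR1 cDNA (0.58 to 1.199, median 0.92), where 6.90% of all tested probe sets were. All 7 also had a called negative interaction (-1.91 to -0.999), beside 7.61% of all tested probe sets. Of the 7, 6 were at or above the dim level. The 7 share a host, so their calls are not 7 separate results. With both cDNAs none was called, at -0.38 to -0.0084. With shLATS1+2 the changes were 0.25 to 0.78 and SNORD75 and SNORD78 were called. SNORD74 read 10.27, 10.60 and 10.72 in the control arrays and 10.63, 11.28 and 11.41 with ESR1 cDNA, where array 1 overlapped the controls. In the fit that kept array 1 as the only ESR1 array, SNORD78 changed by 0.47 and SNORD44 by 0.39 with ESR1 cDNA. Their interactions there were -1.16 and -1.24, and no call is read from that fit. The GAS5 transcript itself was not analysed here.

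The ribosomal protein gene RPL13A hosts SNORD32A, SNORD33, SNORD34 and SNORD35A. SNORD33, an 18S guide, read 11.07, 10.94 and 10.996 in the control arrays, 11.37, 11.29 and 11.25 with shLATS1B and 11.42, 11.18 and 11.42 with shLATS1+2, above the controls in all 6. It changed by 0.30 ± 0.090 (limma, adjusted p = 0.021) and 0.34 ± 0.090 (limma, adjusted p = 0.0098). With both cDNAs its change was 0.17 and not called, while SNORD34 (-0.63) and SNORD35A (-0.64) were called lower by limma. The difference between these members was not tested.

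The SNORD116 family, transcribed from the imprinted host SNHG14 and lost in most cases of Prader-Willi syndrome, has 20 members, 9 of them at or above the dim level. Over the 6 groups 10 were called by the F test, a share near the 40.8% of all tested probe sets, and in the 7 pairwise and interaction comparisons none. SNORD116-20 read 9.35, 9.56 and 9.49 in the control arrays, 9.91, 9.64 and 9.77 with YAP/TAZ cDNA and 9.84, 9.73 and 9.62 with both. In the shLATS1B arrays it read 9.20, 9.03 and 8.97, under the lowest control, and in those labelled shLATS1+2 9.22, 9.08 and 9.69, where array 3 lay above the highest control. SNORD116-15 showed the same order, with a change of -0.40 ± 0.15 with shLATS1B (limma, adjusted p = 0.067).

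Members were set beside their hosts where the array measured both. This held for 91 members in 67 hosts, and for 55 members in 41 hosts both were at or above the dim level. Over those 55 the median r between member and host over 18 arrays was 0.530, with a range from -0.925 (SNORA50A in CNOT1) to 0.943 (SCARNA9, probe set 7943158, in CEP295). The member had the larger residual SD in 52 of 55, with medians of 0.281 for members and 0.0933 for hosts. A probe set over an intronic RNA also reads unspliced host transcript, and these cannot be told apart here.

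With ESR1 cDNA, 25.4% of all tested probe sets at or above the dim level were called, hosts included. Of the 55 members 8 were called. No host was called the same way and 3 were called the other way: ODC1 (-0.21) with SNORA80B (0.41), RPL3 (-0.18) with SNORD43 (0.47) and KPNA4 (-0.31) with SCARNA7 (0.87). The median host change was -0.069 and the median member change 0.29. With both cDNAs, 39.5% of all tested probe sets at or above the dim level were called, hosts included. Of the 55 members 15 were called, 8 of them in hosts called the same way and 1 in a host called the other way. Among these, HAUS6 (-0.58) fell with SCARNA8 (-0.48), RPL27A (-0.46) with SNORA3B (-0.99) and PHB2 (-0.30) with SCARNA12 (-0.76).

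With shLATS1+2, 9 of the 55 members were called, where 33.0% of all tested probe sets at or above the dim level were. No host was called the same way and 3 were called the other way. Among these were TBRG4 (-0.26) with SNORA5A (1.07) and NCL (-0.33) with SNORA75 (0.83). Of 16 members with a called interaction, 2 hosts were called the same way, where 25.8% of all tested probe sets at or above the dim level were called. The median interaction was -0.72 for members and -0.058 for hosts.

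**Figure D5:**
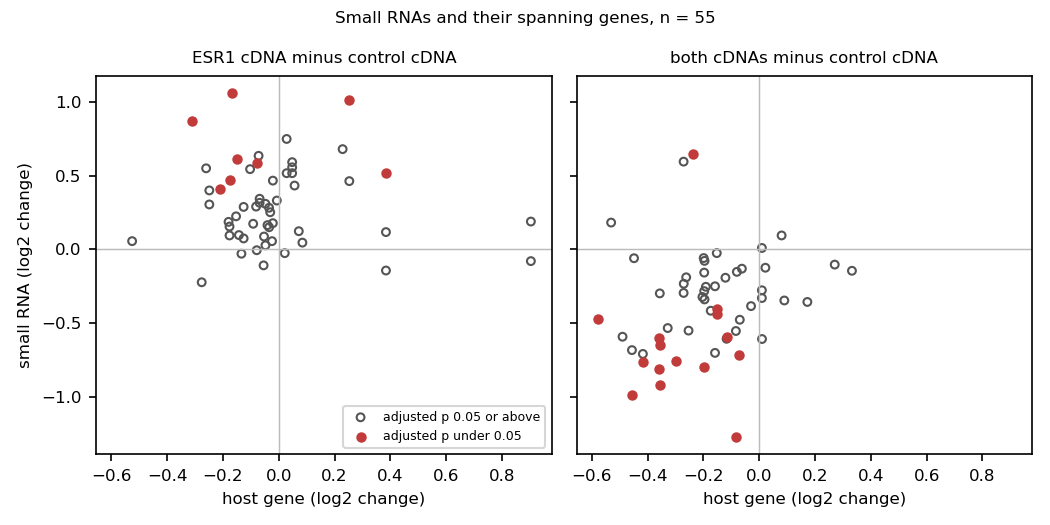
The log2 change of 55 small RNA probe sets is plotted against that of the host gene, for ESR1 cDNA and for both cDNAs against control cDNA, with filled points where the small RNA had an adjusted p under 0.05. With ESR1 cDNA the filled points lie on both sides of 0 on the host axis, from KPNA4 at -0.31 to RABGGTB at 0.38; with both cDNAs all filled points lie left of 0.

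Genes for the proteins that build these particles were mostly called lower where they were called. Of the 4 box H/ACA core proteins, all measured, none was called higher in any comparison with the control arrays. In these comparisons only 3.02% to 14.4% of all tested probe sets were called higher. DKC1, the pseudouridine synthase, was called lower with shLATS1B (-0.22), shLATS1+2 (-0.20), ESR1 cDNA (-0.23) and both cDNAs (-0.33). Of the 4 box C/D core proteins 2 were measured. FBL, the methyltransferase, was called lower with ESR1 cDNA (-0.31), both cDNAs (-0.28) and shLATS1+2 (-0.24). NOP58 was called lower with both cDNAs (-0.42) and shLATS1B (-0.23).

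All 11 assembly and transport factors were measured, all at or above the dim level. With ESR1 cDNA 8 were called lower and none higher, with a median of -0.24 over the list. Of the 13410 tested probe sets at or above that level 2166 were called lower. With both cDNAs 5 were called lower, beside 2684 of the same 13410. With shLATS1+2 4 were called lower and 1 higher, beside 2332 and 2091 of the same 13410. NUFIP1, which joins the box C/D core during assembly, was called lower with shLATS1+2 (-0.73), shLATS1B (-0.55), both cDNAs (-0.41) and ESR1 cDNA (-0.34). SHQ1, a chaperone of DKC1, was called lower with both cDNAs (-0.55), shLATS1+2 (-0.49), shLATS1B (-0.47) and ESR1 cDNA (-0.19).

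Of 7 Cajal body genes 6 were measured. WRAP53, which carries SCARNA members to the Cajal body, was called lower with both cDNAs (-0.65), shLATS1+2 (-0.43), ESR1 cDNA (-0.39) and shLATS1B (-0.36). Of 6 genes for end maturation and debranching 5 were measured, and none was called higher in a comparison with the control arrays. The share called higher among all tested probe sets was only 3.02% to 14.4% there. Of 20 host long non-coding genes on the list only 4 were measured with a probe set of their own. SNHG17, the host of SNORA71A and SNORA71C, was called higher with ESR1 cDNA (0.90) and had an interaction of -1.46, also called, while ZFAS1 (0.52) and EPB41L4A-AS1 (0.57) were called higher with shLATS1+2. These comparisons share the control arrays, so their values are not independent of each other.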

How the data were processed

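Total RNA was read on 18 Affymetrix whole-transcript arrays. The authors deposited 1 table of log2 intensities per probe set, already summarised and normalized, and the submitters' processing notes name affy without a version (the further steps: not given in the sources used here). Gene names came from the platform's annotation table: 19158 carried 1 symbol, 1388 several and 11775 none. Hosts are genes whose RefSeq GRCh38.p14 span holds the member; that table gives no strand, so a same-strand condition could not be applied.

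The log2 values were used as deposited. limma 3.58.1 (R 4.3.3) fitted 1 mean per group over all 18 arrays (lmFit, contrasts.fit, eBayes), with 12 residual and 3.78 prior degrees of freedom. Tests were two-sided, with Benjamini-Hochberg adjustment over the 19158 probe sets and calls at an adjusted p under 0.05. The interaction is both cDNAs minus ESR1 cDNA, less YAP/TAZ minus control cDNA. The tests were tried on simulated data with noise that was independent between probe sets. The deviations of members were shared, which that trial did not cover. The number of arrays limits the precision.

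Members and lists were chosen with earlier results of these data known. The lists were box C/D core proteins, box H/ACA core proteins, assembly and transport, Cajal body, end maturation and debranching, host long non-coding genes, mammary epithelial markers, other cell type markers, and the targeted and transfected genes. Named were, per comparison, up to 4 called rises and 4 called falls whose arrays did not overlap, the 6 smallest F test p-values, the 4 largest and 4 smallest residual SDs, the 3 brightest of each class, up to 4 called list genes per comparison and the 5 most alike pairs; members of the hosts GAS5, RPL13A, RPL23A and SNHG14 were added after their values were seen.

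Alternatives were all probe sets, 1 probe set per symbol, arrays centred on medians, quantile normalization, dim probe sets left out, a variance trend, the replicate number as a block, a test against a fold of 1.2 and leaving out each array. Fits that left out more than 1 array were chosen after seeing the data.

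Replicate numbers are shared by the groups. Deviations of arrays with the same number had a median correlation of -0.0782 (-0.683 to 0.616, 45 pairs), so the numbers were not taken to pair the arrays.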

Additional observations from a re-analysis of the deposited data

Results flagged for a closer look

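4 members had a difference between groups that was itself tested, as the largest called interactions, which set the effect of adding YAP/TAZ cDNA with ESR1 cDNA against the same effect without it. The values were -1.91 ± 0.37 log2 units for SNORD44 (limma, adjusted p = 0.0019), -1.89 ± 0.34 for SNORD78 (limma, adjusted p = 0.00095), -1.69 ± 0.39 for SNORA74A (limma, adjusted p = 0.0061) and -1.60 ± 0.32 for SNORD30 (limma, adjusted p = 0.0024). In the ESR1 group, array 1 lay below arrays 2 and 3 for all 4. Leaving out ESR1 arrays 2 and 3 and shLATS1+2 array 3 left a single ESR1 array, so no call is read from that fit. Its values were -1.24 for SNORD44, -1.16 for SNORD78, -0.92 for SNORA74A and -1.07 for SNORD30. Groups of 3 arrays were too small for a formal test of single outlying arrays, which were only left out in turn.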

How the results depend on the processing

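Counts of called members moved in fits that left out arrays picked after the data were seen. The first such fit kept ESR1 arrays 2 and 3, which stood apart, and left out ESR1 array 1. Without ESR1 array 1 and shLATS1+2 array 3 the counts were 35 for shLATS1B, 6 for YAP/TAZ, 92 for ESR1 and 60 for both cDNAs. They were 1 for shLATS1+2 against shLATS1B and 111 for the interaction. Without ESR1 arrays 2 and 3 and shLATS1+2 array 3 a single ESR1 array was left, so ESR1 and interaction counts are not listed. The other counts were then 40 for shLATS1B, 6 for YAP/TAZ, 61 for both cDNAs and 1 for shLATS1+2 against shLATS1B. Tested against a fold of 1.2, the counts were 1 for shLATS1B, 6 for shLATS1+2, 2 for ESR1, 4 for both cDNAs and 12 for the interaction. The F test has no such form and was not run that way. With a variance trend shLATS1B had 16, and over all probe sets both cDNAs had 17. With dim probe sets left out the median residual SD was 0.266. The cause was not tested. Leaving out each array gave 5 to 27 for shLATS1B, 13 to 41 for shLATS1+2, 0 to 1 for YAP/TAZ, 10 to 80 for ESR1, 11 to 47 for both cDNAs, 0 to 1 for shLATS1+2 against shLATS1B, 23 to 104 for the interaction, 60 to 120 for the F test and 0.135 to 0.170 for the spread.

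With the replicate number as a block the counts were 9, 26, 0, 32, 22, 0 and 41 in the order shLATS1B, shLATS1+2, YAP/TAZ, ESR1, both cDNAs, shLATS1+2 against shLATS1B and interaction, and 89 for the F test; 4 of 18 arrays correlated best with their own number. For named members, 653 values kept direction and call, 45 kept direction and lost the call, and none reversed. Outside the interaction these members were picked for arrays that did not overlap, so leaving out arrays could not reverse their direction. The absence of reversals in those fits is therefore no result. The counts also include the fit that left a single ESR1 array. Dim members, 84 of 196, lie close to background, where changes are compressed.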
